A study of Mus musculus with 9 samples.

Results

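Collagens, the lysyl oxidases that cross-link them and a small set of matrix glycoproteins and proteoglycans were followed in mouse Hepa 1 WT hepatoma cells by RNA sequencing. Members were chosen by symbol: every gene named as a collagen chain (Col, number, a, number), every lysyl oxidase (Lox and the Loxl genes), and Dcn, Bgn, Lum, Fn1 and Sparc. The rule found 52 genes among the 28932 genes with an ID. Each gene is represented by the transcript entry with the highest mean count over the 9 libraries. A gene entered the tests only if its counts passed edgeR's filter on low counts, which 23 of the 52 did. Of the others, 17 had between 1 and 73 counts in all 9 libraries together, and 12 had none.

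The cells were given FICZ at 10 nM, tryptamine at 50 uM, or neither, and RNA was taken after 6 h, with 3 libraries per group. FICZ forms from tryptophan under light and is a high-affinity agonist of the AhR, the aryl hydrocarbon receptor, which moves to the nucleus and regulates genes once a ligand is bound. Tryptamine, a decarboxylation product of tryptophan, is called a proligand of this receptor in the series title. For the last group one label says untreated and the protocol says vehicle, so these libraries are called control here, and the cell line label reads HC1C. No label says whether the libraries of a group came from separate cultures, so the p-values measure the spread between these libraries, which may be technical.

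Collagen chains join in threes to form either fibrils (types I, III and V) or the open network of basement membranes (type IV). Lysyl oxidases are copper enzymes that oxidise lysine side chains in collagen and elastin, the step that lets the chains be cross-linked outside the cell. Decorin (Dcn), biglycan (Bgn) and lumican (Lum) are small leucine-rich proteoglycans that bind collagen fibrils. Fibronectin (Fn1) is a large adhesive glycoprotein, and Sparc is a collagen-binding glycoprotein. In liver, fibril-forming matrix is known mostly as a product of stellate cells and fibroblasts, while the AhR is known for inducing xenobiotic-metabolising enzymes.

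Total counts over genes ran from 11594795 in control replicate 3 to 16715843 in FICZ replicate 2. Levels are in CPM, counts scaled to the effective library size. Cyp1a1, the usual readout of AhR activity, checks the labels: it stood at 1022, 1035 and 951 CPM in the FICZ libraries and at 674, 682 and 754 CPM in the tryptamine libraries, against 63.9, 55.4 and 58.3 CPM in the controls. Of 12 hepatocyte markers, 6 had no count in any library (Apoa1, Apob, Ttr, Fga, Hnf4a and Ahsg), and 3 averaged at least 1 CPM (Alb, Afp and Trf). The summed level of that list was 770.4 to 792 CPM with FICZ, 757 to 782 CPM with tryptamine and 784 to 985 CPM in control. Of 15 fibroblast and stellate cell markers, 12 had a count and 6 averaged at least 1 CPM (Vim, Des, Pdgfra, Pdgfrb, Acta2 and S100a4), while Lrat, Reln and Tcf21 were at 0. This list summed to 2165 to 2341 CPM with FICZ, 2286 to 2516 CPM with tryptamine and 2382 to 2854 CPM in control. Most of that sum was Vim, which averaged 2296 CPM over the 9 libraries. In all 9 libraries together, Thy1 and Cygb had 1 count each, Ngfr 3, Fap 10, Rgs5 12 and Postn 24. The 10 endothelial markers summed to at most 9.54 CPM in any library, with Cdh5, Tek, Emcn and Erg at 0. The 10 blood markers summed to at most 78.1 CPM. The 7 bile duct markers, led by Krt7 and Spp1, summed to 1066 to 1118 CPM with FICZ, 1039.5 to 1118 CPM with tryptamine and 1131 to 1566 CPM in control. Krt7 averaged 936 CPM and Krt19 1.45 CPM over the 9 libraries, while Epcam had no count and Cftr 9 counts in all. The control ranges of these sums include control replicate 3, a library that differed from the others, as described below. Spp1, for example, had 131, 120 and 158 CPM in control replicates 1, 2 and 3. The part of these marker levels in the results was not tested.

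Promoter windows of 4 genes are shown first, because Loxl4 and Col3a1 are the members called once control replicate 3 was left out, because Col4a1 and Col4a2 varied together, and because the core of the AhR response element, GCGTG, can be looked for in them. Each window covers 250 bases before to 50 bases after an annotated start site (RefSeq, build GRCm38.p6), printed 5′ to 3′ on the strand of the gene, with the core on either strand (GCGTG or CACGC) in capitals.
Loxl4, chr19:42612757-42613056, minus strand: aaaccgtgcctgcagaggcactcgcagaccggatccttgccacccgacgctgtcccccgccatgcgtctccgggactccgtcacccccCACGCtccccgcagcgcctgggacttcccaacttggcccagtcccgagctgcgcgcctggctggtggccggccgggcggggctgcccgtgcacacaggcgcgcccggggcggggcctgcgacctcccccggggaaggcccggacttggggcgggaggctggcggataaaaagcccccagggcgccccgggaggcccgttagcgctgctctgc
Col3a1, chr1:45311288-45311587, plus strand: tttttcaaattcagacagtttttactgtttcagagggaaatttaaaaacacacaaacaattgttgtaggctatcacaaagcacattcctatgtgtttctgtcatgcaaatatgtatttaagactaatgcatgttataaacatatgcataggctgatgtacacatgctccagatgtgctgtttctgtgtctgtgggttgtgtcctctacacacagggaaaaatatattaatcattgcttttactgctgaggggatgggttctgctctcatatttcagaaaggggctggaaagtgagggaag
Col4a1, chr8:11312777-11313076, minus strand: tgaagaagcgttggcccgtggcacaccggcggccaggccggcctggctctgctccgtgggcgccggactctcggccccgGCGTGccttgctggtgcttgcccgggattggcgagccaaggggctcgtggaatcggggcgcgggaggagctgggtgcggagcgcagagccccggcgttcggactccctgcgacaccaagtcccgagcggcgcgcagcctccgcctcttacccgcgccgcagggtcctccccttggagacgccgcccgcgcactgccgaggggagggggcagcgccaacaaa
Col4a2, chr8:11312555-11312854, plus strand: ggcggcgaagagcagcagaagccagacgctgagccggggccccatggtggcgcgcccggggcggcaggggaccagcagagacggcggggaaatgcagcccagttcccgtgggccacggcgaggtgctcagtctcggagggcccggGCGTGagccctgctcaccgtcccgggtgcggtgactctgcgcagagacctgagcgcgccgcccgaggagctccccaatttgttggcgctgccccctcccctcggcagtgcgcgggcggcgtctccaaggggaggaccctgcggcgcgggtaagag

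The Loxl4 window held 1 core, whose first base lay 162 bases before the start site, and the Col4a1 and Col4a2 windows held 1 each, 171 and 105 bases before theirs. The Col3a1 window held none. It also differed in composition, with 0 CG dinucleotides and 37.7% G and C, against 37 CG dinucleotides and 74.0% for Col4a1. Col4a1 and Col4a2 lie on opposite strands with annotated start sites 21 bases apart, and their windows share 78 bases. The table of promoters matched 37 of the 52 genes with 40 windows, of which 12 held the core on either strand (30.0%). Among all 32851 windows in the table, 10639 did (32.4%). A match is a run of letters and not a binding site, and the absence of a match says only that these letters do not occur in that window.

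Matrix expression was concentrated in few genes. On the scale of CPM per kb of transcript, which allows levels to be compared between genes, 11 of the 52 members averaged at least 10 over the 9 libraries, 4 lay between 1 and 10, 25 were above 0 and under 1, and 12 were at 0. Fn1 was the highest with a mean of 403 CPM per kb. Sparc (256), Col1a1 (230), Dcn (184) and Loxl2 (95.5 CPM per kb) followed. Col4a1, at 55.7, and Loxl4, at 51.6 CPM per kb, came next, ahead of Col4a2 (35.2), Col8a1 (25.7), Col12a1 (16.0) and Col3a1 (10.1). Loxl3 stood at 4.87 CPM per kb and Col4a3 at 1.77. Over the 8 libraries other than control replicate 3, the ranges of neighbours in this order overlapped between Sparc and Col1a1, between Col4a1 and Loxl4, between Col4a3 and Col20a1 and between Col20a1 and Col4a4. The ranges of the other neighbours among the 15 highest genes did not overlap there.

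**Figure D1:**
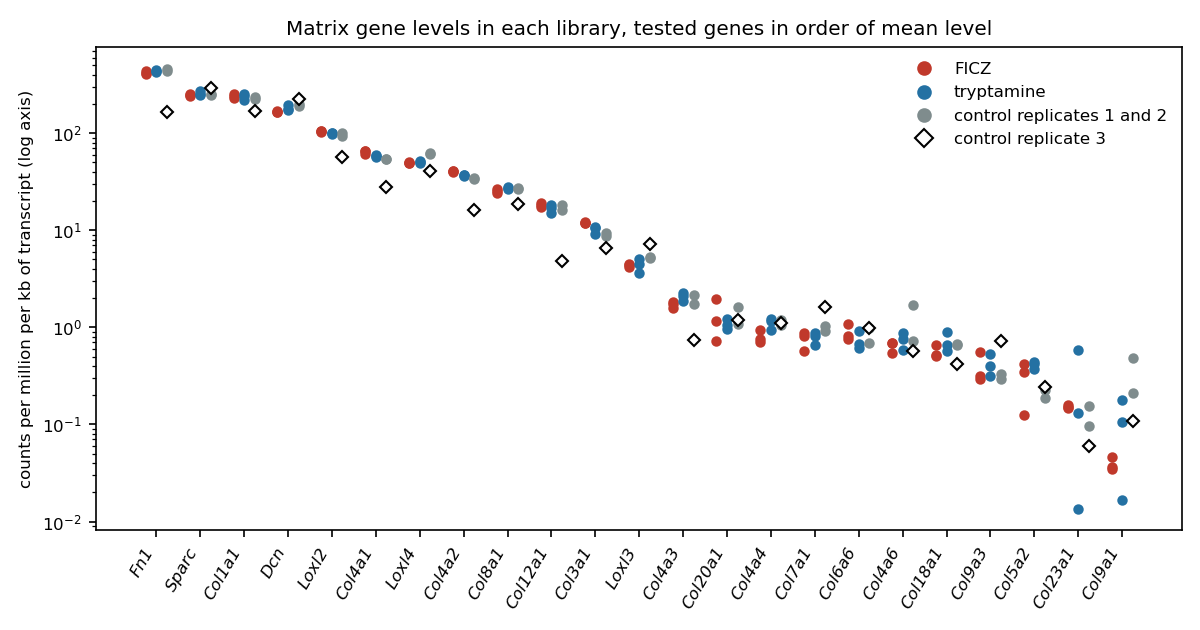
Level of each tested matrix gene in each library, in CPM per kb of transcript on a log axis, with genes in order of their mean. FICZ, tryptamine and control libraries run from left to right within a gene, and the open diamond is control replicate 3, which lies at 164 CPM per kb for Fn1 against 411 to 458 in the other 8 libraries.

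The summed level of all 52 members was 7848, 7539.8 and 7437 CPM in the FICZ libraries and 7677, 7775 and 7496 CPM in the tryptamine libraries. The controls had 7798, 7634 and 4415 CPM. Control replicate 3 thus had the lowest sum, while the sums of the other controls lay within the range of the treated libraries. Fn1 alone made up 45.8 to 46.6% of the sum with FICZ, 46.8 to 47.9% with tryptamine and 47.0, 48.8 and 30.8% in control replicates 2, 1 and 3. Fn1 (gene ID 14268) had 3661, 3452 and 3416 CPM with FICZ, 3674, 3668 and 3506 CPM with tryptamine, and 3805, 3590.4 and 1362 CPM in control.

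One control library, replicate 3, differed from the rest, and the difference changed with transcript length. Its log CPM correlated with those of the other libraries across genes at 0.954 to 0.960. Over all genes tested, the median log2 ratio of this library to the mean of the other controls was 0.63 for transcripts of up to 1000 nt, 0.02 for 2001 to 4000 nt, -0.75 for 6001 to 8000 nt and -1.10 for transcripts over 8000 nt. Matrix transcripts are mostly long: 18 of the 23 tested members exceed 4000 nt, and 14 of these 18 were lower in control replicate 3 than in the mean of the other controls. Col12a1 (11511 nt) stood there at 28.3% of the mean of control replicates 1 and 2, Fn1 (8313 nt) at 36.8%, Col4a2 (6425 nt) at 47.6%, Col4a1 (6615 nt) at 51.8%, and Loxl4 (5437 nt) at 66.7%. The shorter Dcn (1886 nt) and Sparc (2299 nt) stood at 115% and 118%. Among the long members 4 went the other way: Col7a1, whose transcript has 9250 nt, at 167%, Loxl3 at 137%, Col5a2 at 118% and Col6a6 at 117%. Log2 changes of members against control are therefore given, where shown, with and without this library. Those of other matrix genes that passed no test are given only without it.

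**Figure D2:**
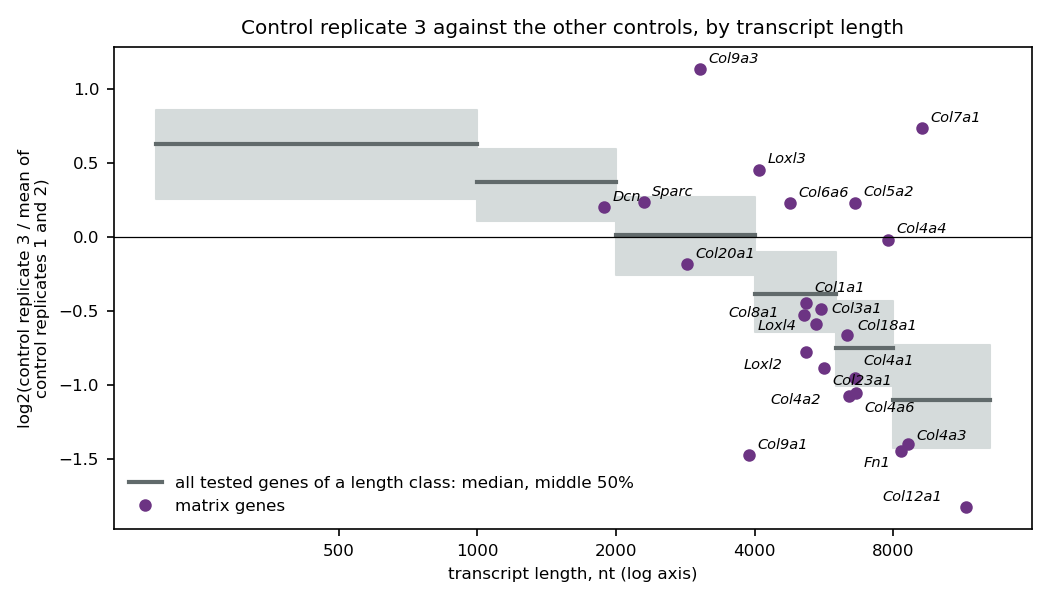
Log2 ratio of control replicate 3 to the mean of control replicates 1 and 2 against transcript length in nt (log axis), for the 23 tested matrix genes (points), with the median and the middle 50% of all tested genes in each of 6 length classes (lines and grey boxes). The class medians run from 0.63 to -1.10, and of the 18 members over 4000 nt only Col7a1, Loxl3, Col5a2 and Col6a6 lie above 0.

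The first comparison asks whether FICZ changed these genes within 6 h. With all 9 libraries, edgeR's quasi-likelihood test called 0 of the 23 members at a Benjamini-Hochberg adjusted p under 0.05, where 0.113% of all 12374 genes were called. At an unadjusted p under 0.05 there were 8 members, where 8.11% of all genes lay, and DESeq2's Wald test called 0 members, against 0.436% of all genes. Without control replicate 3, 2 of the 24 members then tested were called, against 0.805% of the 12540 genes: Col3a1 rose, as did 0.574% of all genes, and Loxl4 fell, as did 0.231%. In that fit 8 members had an unadjusted p under 0.05, where 9.97% of all genes lay. Without that library the Wald test called 5 members (Col3a1, Col4a1, Col4a2, Dcn and Loxl4), against 1.07% of all genes. With replicate number as a further term and without that library, edgeR called 6 members, against 206 of 12540 genes. Of these 6 members, 3 were higher and 3 lower. Offsets that remove each library's trend with transcript length gave 0 called members with all 9 libraries, against 0.412% of all genes, and 3 without control replicate 3 (Col3a1, Loxl4 and Col9a1), against 0.933%. Of these, Col9a1 passed the filter on low counts through no FICZ library. The median log2 change of the tested members was 0.006 with all 9 libraries and -0.03 without control replicate 3, while the median of all genes was -0.006 and 0.0001. In a bulk measurement, fewer cells of a type and less RNA per cell cannot be told apart.

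Col3a1 (gene ID 12825), the alpha chain of type III collagen, had 65.6, 65.7 and 67.1 CPM in the FICZ libraries and 58.0, 51.4 and 59.6 CPM in the tryptamine libraries, against 49.0, 52.1 and 36.2 CPM in control. All FICZ libraries lay above all tryptamine and all control libraries, whichever control is left out. FICZ over control gave a log2 change of 0.53 ± 0.137 (SE, edgeR adjusted p = 0.498) with all 9 libraries and 0.39 ± 0.093 (SE, edgeR adjusted p = 0.0454) without control replicate 3, a 1.31-fold rise. It passed in 5 of 22 alternatives, each of which left out control replicate 3, and its adjusted p ranged from 0.00929 to 0.834. With the offsets for length, all 9 libraries gave 0.37 ± 0.081 (SE, edgeR adjusted p = 0.0983). The gene's 12 transcript entries with a mean of at least 20 counts, which share reads, were all higher with FICZ than in control replicates 1 and 2.

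Loxl4 (gene ID 67573), a lysyl oxidase-like enzyme with scavenger receptor domains, had 272, 270.04 and 271 CPM with FICZ, 266, 275 and 282 CPM with tryptamine, and 331, 337 and 223 CPM in control. The treated libraries were close to each other and lay between control replicate 3 on one side and control replicates 1 and 2 on the other. The log2 change with FICZ was -0.13 ± 0.139 (SE, edgeR adjusted p = 0.696) with all 9 libraries and -0.30 ± 0.060 (SE, edgeR adjusted p = 0.00797) without control replicate 3. The corresponding level was 0.811 times that of the controls. Its adjusted p ranged from 0.000108 to 0.918 over 22 alternatives, and the 6 in which it passed all left out control replicate 3. With the offsets for length and all 9 libraries the log2 change was -0.28 ± 0.061 (SE, edgeR adjusted p = 0.0983). All 12 transcript entries, which share reads, were lower with FICZ than in control replicates 1 and 2.

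**Figure D3:**
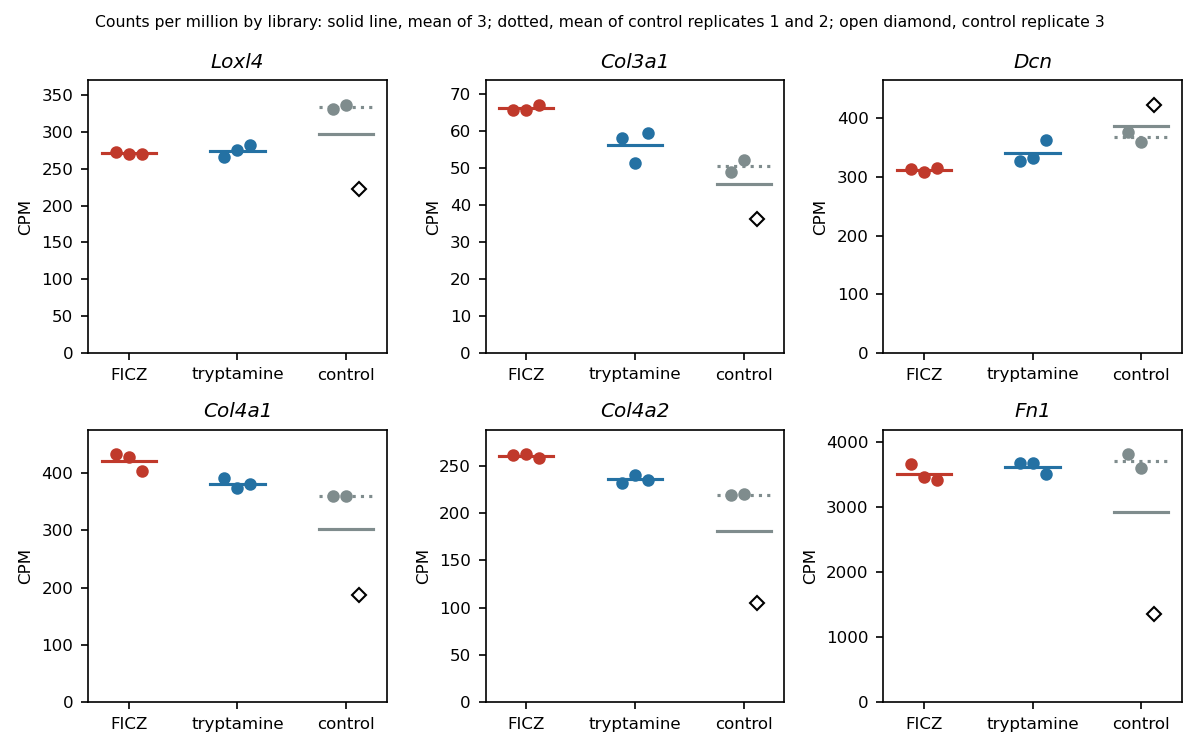
CPM of Loxl4, Col3a1, Dcn, Col4a1, Col4a2 and Fn1 in each library, by group, with the mean of 3 libraries (solid line), the mean of control replicates 1 and 2 (dotted line) and control replicate 3 as an open diamond. For Loxl4 the FICZ and tryptamine libraries, at 266 to 282 CPM, lie between control replicate 3 at 223 CPM and the other controls at 331 and 337 CPM, and for Col3a1 every FICZ library lies above every other library.

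Among the other lysyl oxidases, Loxl2 and Loxl3 were expressed, while Lox and Loxl1 had 0 counts in 9 libraries, which allows up to 0.0231 CPM. That limit covers counting error only. Loxl2 (gene ID 94352), which oxidises lysines of collagen IV, had 548, 529 and 541 CPM with FICZ, 514, 508 and 516 CPM with tryptamine, and 489.7, 514 and 293 CPM in control. Every FICZ library was above every other library. The log2 change with FICZ was 0.32 ± 0.169 (SE, edgeR adjusted p = 0.605) with all 9 libraries and 0.11 ± 0.056 (SE, edgeR adjusted p = 0.565) without control replicate 3. Loxl3 had 17.9, 18.3 and 17.1 CPM with FICZ, 18.5, 15.0 and 20.7 CPM with tryptamine, and 21.1, 21.7 and 29.4 CPM in control. Its treated libraries lay below all controls, and the log2 change with FICZ was -0.44 ± 0.165 (SE, edgeR adjusted p = 0.601) and, without control replicate 3, -0.27 ± 0.139 (SE, edgeR adjusted p = 0.538). The ratio of Loxl2 to Loxl4 per kb was 2.09 ± 0.029 with FICZ, 1.96 ± 0.057 with tryptamine and 1.51 ± 0.117 in control (SD, n = 3 each).

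Among fibrillar collagens, Col1a1 (gene ID 12842), the alpha 1 chain of type I collagen, was by far the most abundant, with 1306, 1261 and 1183 CPM with FICZ, 1237, 1316 and 1139 CPM with tryptamine, and 1169.9, 1214 and 878 CPM in control. Control replicate 3 was the lowest and the other groups overlapped. The log2 change with FICZ was 0.20 ± 0.120 (SE, edgeR adjusted p = 0.605), and without control replicate 3 it was 0.07 ± 0.060 (SE, edgeR adjusted p = 0.762). Col1a2, whose product joins that of Col1a1 in the usual type I trimer, had 11 counts in all 9 libraries (95% Poisson interval 5.49 to 19.7, counting error only) against 154952 for Col1a1. Of these 11 counts, 0 came from the FICZ libraries, 2 from the tryptamine libraries and 9 from the controls. Col5a2, a minor fibril chain, had 91, 117 and 59 counts in the FICZ, tryptamine and control libraries. Its log2 changes without control replicate 3 were 0.54 ± 0.440 with FICZ and 0.99 ± 0.432 with tryptamine (SE, edgeR adjusted p = 0.752 and 0.735), and with all 9 libraries 0.45 ± 0.406 and 0.91 ± 0.399 (SE, edgeR adjusted p = 0.652 and 0.741). The other 8 fibrillar genes, Col1a2 among them, were not tested, and 3 of these (Col5a1, Col11a1 and Col27a1) had no count.

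In the basement membrane group, Col4a1 (gene ID 12826) and Col4a2 (gene ID 12827), whose chains form the common type IV trimer, varied together. Col4a1 had 433, 429 and 404 CPM with FICZ, 391, 373 and 381 CPM with tryptamine, and 360.0, 361 and 186 CPM in control. Col4a2 had 262, 262 and 258 CPM with FICZ, 232, 241 and 235 CPM with tryptamine, and 219, 221 and 105 CPM in control. For both genes the FICZ libraries were above the tryptamine libraries and these were above all controls, with no overlap. Without control replicate 3, the log2 change with FICZ was 0.23 ± 0.060 for Col4a1 (SE, edgeR adjusted p = 0.0796) and 0.25 ± 0.062 for Col4a2 (SE, edgeR adjusted p = 0.0587). Fitted to all 9 libraries, these were 0.48 ± 0.200 and 0.52 ± 0.220 (SE, edgeR adjusted p = 0.601 each). Each gene passed in 2 of 22 alternatives, both without control replicate 3. The ratio of Col4a1 to Col4a2 per kb stayed between 1.51 and 1.73 in the 9 libraries, with a median of 1.59. The 21 bases between their start sites and the shared part of their printed windows are set beside these values as a description.

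**Figure D4:**
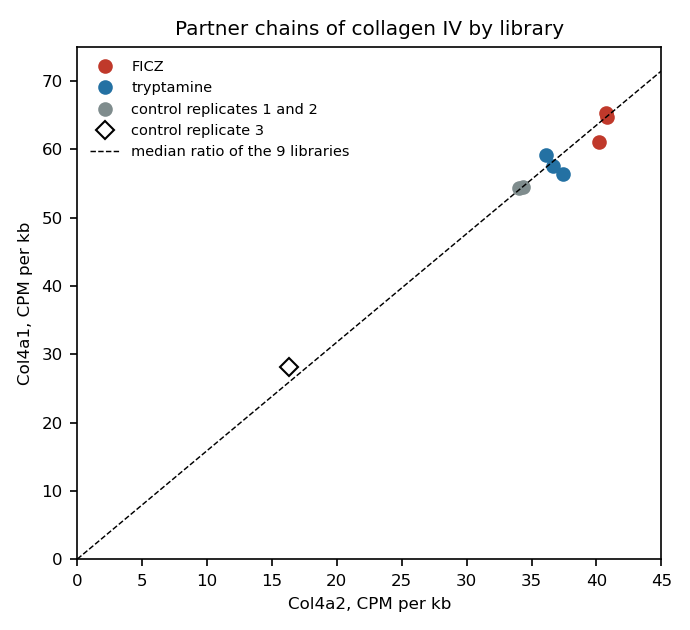
Col4a1 against Col4a2 in CPM per kb of transcript, with 1 point per library. The points lie along the dashed line, which has the median ratio of 1.59 as its slope, with the FICZ libraries at the upper end, tryptamine and control replicates 1 and 2 next, and control replicate 3 at 28.2 and 16.3 CPM per kb.

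The alpha 3 and alpha 4 chains of type IV collagen, which form a trimer with the alpha 5 chain in kidney, were much lower. Col4a3 had 14.8, 15.6 and 13.5 CPM with FICZ, 19.3, 16.1 and 17.9 CPM with tryptamine, and 18.6, 15.0 and 6.31 CPM in control. Col4a4 had 7.26, 5.95 and 5.47 CPM with FICZ, 9.05, 7.34 and 9.55 CPM with tryptamine, and 8.25, 9.36 and 8.70 CPM in control. Their FICZ libraries lay below their tryptamine libraries, and for Col4a4 also below all controls. Col4a4 had log2 changes with FICZ of -0.50 ± 0.179 (SE, edgeR adjusted p = 0.601) and, without control replicate 3, -0.50 ± 0.20 (SE, edgeR adjusted p = 0.369). The ratio of Col4a3 to Col4a4 per kb was 1.45 to 2.38 in 8 libraries and 0.658 in control replicate 3, a wider range than that of Col4a1 to Col4a2. It rests on fewer counts, 2004 and 1018 in all against 48421 and 29696. The part of counting error in the wider range was not tested. Col4a5 had no count.

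Col4a6 had 4.62, 3.63 and 4.58 CPM with FICZ, 5.10, 3.86 and 5.87 CPM with tryptamine, and 11.3, 4.82 and 3.84 CPM in control, where control replicate 1 was more than the sum of the other controls. Its log2 change with FICZ without control replicate 3 was -0.92 ± 0.278 (SE, edgeR adjusted p = 0.165), and with all 9 libraries -0.65 ± 0.365 (SE, edgeR adjusted p = 0.605). Col7a1, the collagen of anchoring fibrils, had 8.18, 5.30 and 7.45 CPM with FICZ and 7.55, 8.11 and 6.13 CPM with tryptamine, against 8.46, 9.49 and 15.0 CPM in control. All treated libraries lay below all controls, and the log2 changes were -0.65 ± 0.250 with FICZ and -0.59 ± 0.250 with tryptamine (SE, edgeR adjusted p = 0.601 and 0.741). They were smaller without control replicate 3, the highest library for this gene, at -0.37 ± 0.209 and -0.31 ± 0.209 (SE, edgeR adjusted p = 0.597 and 0.883). Col18a1, a basement membrane collagen that carries the endostatin fragment, averaged 3.55 ± 0.535 CPM with FICZ, 4.49 ± 1.04 CPM with tryptamine and 3.70 ± 0.915 CPM in control (SD, n = 3 each).

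Of the network and beaded filament collagens, Col8a1 had 123, 137 and 129 CPM with FICZ, 137, 138 and 143 CPM with tryptamine, and 136, 141 and 96.2 CPM in control. Its FICZ libraries lay just below its tryptamine libraries (log2 -0.11 ± 0.134, SE, edgeR adjusted p = 1). The chains of type VI collagen were nearly silent: Col6a1 had 37 counts in all (95% Poisson interval 26.1 to 51.0), Col6a2 8 and Col6a3 73. Col6a6 had 514 counts, but these came from an entry with 8 exons, while the entry of that gene with the most exons (37) held 0. The same held for Col20a1, whose 459 counts came from an entry with 1 exon while its entry with the most exons (36) held 0. Counts of these genes therefore do not stand for the full-length collagen messages.

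Col12a1, a fibril-associated collagen, had 207, 199.5 and 221 CPM with FICZ, 195, 174 and 211 CPM with tryptamine, and 208, 187 and 55.8 CPM in control. Control replicate 3 was far below the other 8 libraries, which overlapped between groups. The log2 change with FICZ was 0.48 ± 0.350 with all 9 libraries and 0.08 ± 0.078 without control replicate 3 (SE, edgeR adjusted p = 0.614 and 0.784). Col9a1, a cartilage collagen, rested on 7 counts in the FICZ libraries, 16 in the tryptamine libraries and 45 in the controls. Its libraries had 0.142, 0.179 and 0.137 CPM with FICZ, 0.408, 0.695 and 0.0645 CPM with tryptamine, and 1.89, 0.825 and 0.427 CPM in control. Col9a1 passed the filter on low counts through control and tryptamine libraries and through no FICZ library, so its lower level with FICZ is a description. The FICZ libraries lay below all controls. The log2 change of Col9a1 without control replicate 3 was -3.08 ± 0.760 (SE, edgeR adjusted p = 0.0524), and with all 9 libraries -2.73 ± 0.799 (SE, edgeR adjusted p = 0.574). It passed in 1 of 20 alternatives.

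Dcn (gene ID 13179) had 314, 309 and 316 CPM with FICZ, 328, 332 and 364 CPM with tryptamine, and 377, 359 and 423 CPM in control. All FICZ libraries were below all tryptamine libraries and below all controls. The log2 change with FICZ was -0.31 ± 0.091 (SE, edgeR adjusted p = 0.574) with all 9 libraries and -0.24 ± 0.062 (SE, edgeR adjusted p = 0.0847) without control replicate 3. It passed in 2 of 22 alternatives, with adjusted p-values from 0.0078 to 0.834. Of its relatives, Bgn had 30 counts in all 9 libraries (95% Poisson interval 20.2 to 42.8) and Lum had none.

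Fn1 and Sparc, the most abundant members per kb, passed in none of their 22 alternatives with FICZ. Fn1 had a log2 change with FICZ of 0.27 ± 0.281 with all 9 libraries and -0.07 ± 0.046 without control replicate 3 (SE, edgeR adjusted p = 0.698 and 0.636), so its sign turned with that library. Sparc (gene ID 20692) had 587, 557 and 565 CPM with FICZ, 567, 625 and 581 CPM with tryptamine, and 563, 582 and 675 CPM in control. The groups overlapped, and the 95% interval of its log2 change with FICZ was -0.29 to 0.11 with all 9 libraries and -0.13 to 0.11 without control replicate 3. The sign with FICZ also differed between the fits for Col4a3, Col8a1 and Col9a3. The median SE of the 23 log2 changes was 0.250 with all 9 libraries and 0.139 without control replicate 3.

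The second comparison asks the same of tryptamine. With all 9 libraries, edgeR's quasi-likelihood test called 0 of 23 members, where 0.00808% of all genes were called. At an unadjusted p under 0.05 there were 3 members (Loxl3, Col7a1 and Col5a2), where 5.15% of all genes lay, and DESeq2's Wald test called 0, against 0.097% of all genes. Without control replicate 3, 1 of 24 members was called, against 0.199% of all genes. The called member was lower, and 0.0159% of all genes tested were called as lower. In that fit 4 members had an unadjusted p under 0.05, where 6.57% of all genes lay, and the Wald test called 1, against 0.303%. That gene was Loxl4, which fell with a log2 change of -0.29 ± 0.060 (SE, edgeR adjusted p = 0.0404), while it was -0.12 ± 0.139 (SE, edgeR adjusted p = 0.772) with all 9 libraries. It passed in 5 of 22 alternatives, each without control replicate 3. All 12 Loxl4 entries, which share reads, were lower with tryptamine than in control replicates 1 and 2.

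Col3a1 had a log2 change with tryptamine of 0.30 ± 0.137 (SE, edgeR adjusted p = 0.741) with all 9 libraries and 0.15 ± 0.093 (SE, edgeR adjusted p = 0.863) without control replicate 3. For Col4a1 and Col4a2 the values without that library were 0.08 ± 0.060 and 0.10 ± 0.062 (SE, edgeR adjusted p = 0.888 and 0.864), and for Dcn -0.11 ± 0.062 (SE, edgeR adjusted p = 0.829). Fitted to all 9 libraries, they were 0.34 ± 0.200, 0.38 ± 0.220 and -0.18 ± 0.091 (SE, edgeR adjusted p = 0.741 each). The median of the tested members was 0.17 with all 9 libraries and 0.02 without control replicate 3, beside medians of all genes of 0.004 and -0.0005. The comparisons with FICZ and with tryptamine share their control libraries, so the values are set side by side and not related to each other.

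**Figure D5:**
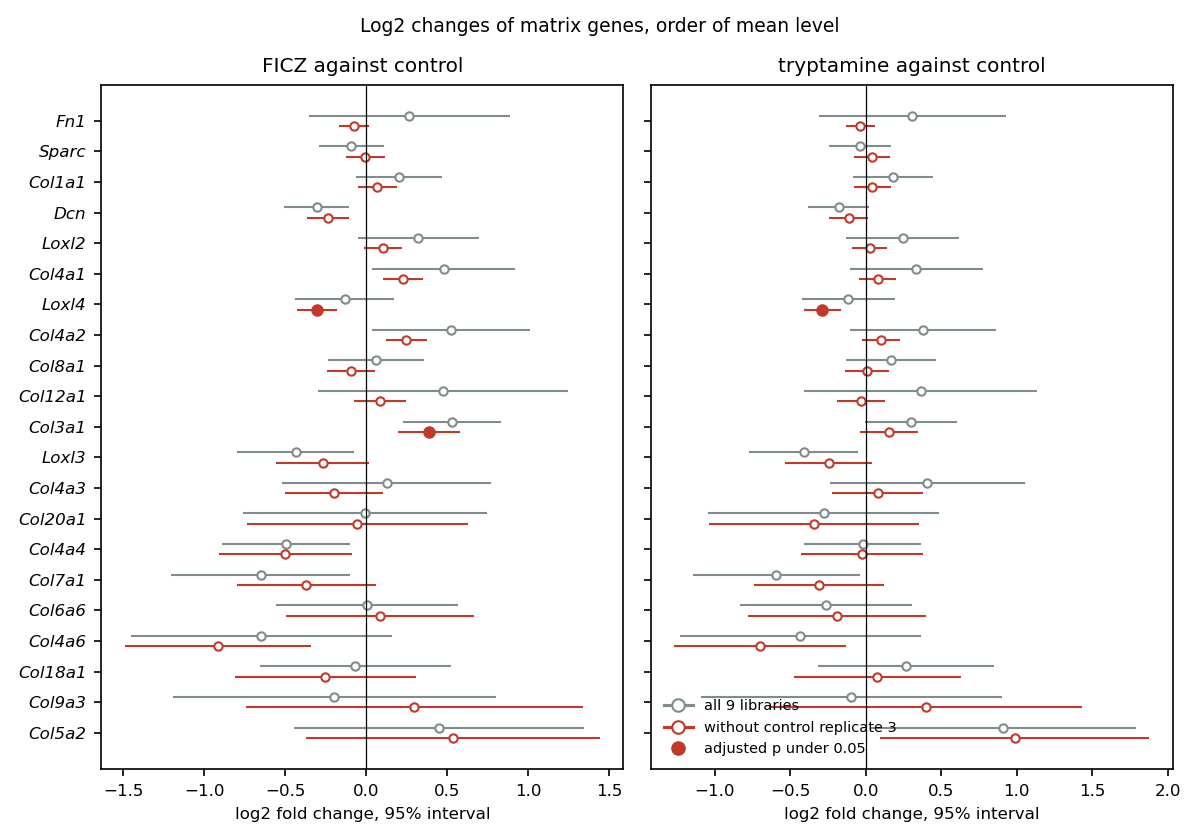
Log2 fold changes with 95% intervals of 21 tested matrix genes for FICZ against control (left) and tryptamine against control (right), with all 9 libraries (grey) and without control replicate 3 (red). Filled points mark an adjusted p under 0.05, which are Loxl4 in both panels and Col3a1 with FICZ, each without control replicate 3. Col9a1 and Col23a1, with few counts and wide intervals, and Col6a3, tested only without control replicate 3, are not drawn.

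FICZ and tryptamine were compared directly, though at different doses (10 nM and 50 uM). With all 9 libraries edgeR's quasi-likelihood test called 0 of 23 members, as it called 0.0% of all genes, and 1 member, Col4a4, had an unadjusted p under 0.05, where 1.73% of all genes lay. DESeq2's Wald test called 0 members with all 9 libraries and 0 without control replicate 3, against 0.0808% and 0.239% of all genes. Without control replicate 3, 0 of 24 were called, where 0.136% of all genes were, and 6 had an unadjusted p under 0.05 (Col3a1, Col4a1, Col4a2, Col4a4, Dcn and Col4a3), where 5.96% of all genes lay. For Col3a1 the log2 difference of FICZ minus tryptamine was 0.23 (95% interval 0.06 to 0.40, edgeR adjusted p = 0.611), for Col4a1 0.15 (0.04 to 0.26), for Col4a2 0.15 (0.03 to 0.26) and for Dcn -0.12 (-0.24 to -0.01). For Loxl4 it was -0.01, with a 95% interval of -0.13 to 0.10. A p that misses the threshold does not show that the treatments act alike.

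Members whose groups do not overlap can be counted without a fit. With all 9 libraries, 4 of 23 members were higher in every FICZ library than in every control (Col3a1, Col4a1, Col4a2 and Loxl2), where 8.21% of all genes were, and 5 were lower (Dcn, Loxl3, Col4a4, Col7a1 and Col9a1), where 7.41% were. With tryptamine, 3 were higher than control (Col4a1, Col4a2 and Col5a2), where 5.20% of all genes were, and 2 were lower (Loxl3 and Col7a1), where 4.87% were. Between FICZ and tryptamine, 4 were higher with FICZ (Col3a1, Col4a1, Col4a2 and Loxl2), where 5.46% of all genes were, and 4 lower (Dcn, Col4a3, Col4a4 and Col8a1), where 5.85% were. Leaving out control replicate 3, 4 of 24 members were higher with FICZ than in control, where 13.8% of all genes were, and 8 were lower, where 14.1% were, with Loxl4, Col18a1 and Col4a6 added to the 5. With tryptamine 4 were then higher, where 10.2% of all genes were, with Col6a3 added, and 4 lower, where 9.83% were, with Loxl4 and Col9a1 added. The same 4 and 4 genes stood apart between FICZ and tryptamine, where 5.43% and 5.84% of all genes did. Members such as Col4a1 and Col4a2 are not independent of each other. Col9a1 passed the filter on low counts through no FICZ library, and Col6a3 through no control library. Their places as lower with FICZ and higher with tryptamine thus follow partly from the filter.

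The authors' deposited table gives p-values per transcript for all 3 controls. In the authors' deposited table, 8 of the 40 members listed with a value for FICZ over control had an adjusted p under 0.05 for the entry used here: Col3a1, Col4a1, Col4a2, Col7a1, Col9a1, Col12a1, Dcn and Loxl3. Of the corresponding entries of all 17580 genes with a value in the authors' deposited table, 5.49% did. Of the 8 members, Col3a1, Col4a1, Col4a2 and Col12a1 were higher with FICZ there and the others lower. Control replicate 3, which enters these values, stood at 28.3% of the mean of control replicates 1 and 2 for Col12a1. For Col7a1 it stood at 167%. For tryptamine over control the authors' deposited table had 0 of 39 members, where 1.64% of all genes passed, and for FICZ over tryptamine 0 of 38, where 0.125% passed. Loxl4 is in none of these. The authors' deposited lists of genes with higher transcripts, with 81 genes for FICZ and 22 for tryptamine, hold 0 members.

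Other genes of the matrix were read from 7 lists, with 90 genes tested with all 9 libraries and 92 without control replicate 3. With all 9 libraries edgeR's quasi-likelihood test called 0 of the 90 in each comparison, with 12 at an unadjusted p under 0.05 for FICZ, 4 for tryptamine and 1 between the treatments, beside 8.11%, 5.15% and 1.73% of all genes. In the fit without control replicate 3, 3 of 92 rose and 1 fell with FICZ, beside 0.574% and 0.231% of all genes, and 1 rose with tryptamine, beside 0.183%. Between the treatments edgeR called 0 of 92, beside 0.136% of all genes. The counts at an unadjusted p under 0.05 were then 19, 9 and 14, beside 9.97%, 6.57% and 5.96% of all genes. Tnxb, a tenascin that associates with collagen fibrils, had 206, 208 and 216 CPM with FICZ, 191, 158 and 162 CPM with tryptamine, and 113, 116 and 39.3 CPM in control. Its FICZ libraries lay above its tryptamine libraries and these above all controls. Without control replicate 3 Tnxb rose by a log2 change of 0.88 ± 0.079 with FICZ (SE, edgeR adjusted p = 6.49e-08) and 0.57 ± 0.079 with tryptamine (SE, edgeR adjusted p = 0.000312). Fitted to all 9 libraries, these were 1.23 ± 0.305 and 0.93 ± 0.304 (SE, edgeR adjusted p = 0.45 and 0.741).

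Gpc1, a heparan sulfate proteoglycan anchored in the cell membrane, had 637, 607 and 561 CPM with FICZ, 531, 572 and 481 CPM with tryptamine, and 445, 475 and 395 CPM in control. It rose with FICZ without control replicate 3 (log2 0.39 ± 0.070, SE, edgeR adjusted p = 0.00282) and with all 9 libraries the change was 0.46 ± 0.102 (SE, edgeR adjusted p = 0.304). Timp2, an inhibitor of matrix metalloproteinases, had 1284, 1286 and 1273 CPM with FICZ, 1111, 1137 and 1199 CPM with tryptamine, and 1117, 1058 and 1079.996 CPM in control, and it rose with FICZ without control replicate 3 (log2 0.24 ± 0.052, SE, edgeR adjusted p = 0.022). Its change with all 9 libraries was 0.24 ± 0.072 (SE, edgeR adjusted p = 0.591). Thbs1, a matricellular protein known as an activator of latent TGF-beta, fell with FICZ in the same fit (log2 -0.29 ± 0.052, SE, edgeR adjusted p = 0.00235) and had -0.06 ± 0.181 with all 9 libraries (SE, edgeR adjusted p = 0.90). It had 861, 869 and 858 CPM with FICZ, 947, 924 and 969 CPM with tryptamine, and 1082, 1031 and 584 CPM in control. As for Loxl4, its treated libraries lay between control replicate 3 and the other controls.

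By list and for FICZ without control replicate 3, 0 of 15 tested genes of collagen modification and export passed, 0 of 10 laminins, nidogens and basement membrane proteoglycans, 1 of 9 other proteoglycans, 2 of 14 elastic fibre and matricellular genes, 1 of 16 proteases and inhibitors, 0 of 14 collagen and fibronectin receptors and 0 of 14 genes of TGF-beta signalling, beside 0.805% of all genes tested. Among enzymes and chaperones that collagen needs before secretion, the log2 changes with FICZ in this fit were -0.28 ± 0.094 for P4ha2, a prolyl hydroxylase subunit (SE, edgeR adjusted p = 0.239), -0.16 ± 0.090 for Pcolce2, an enhancer of procollagen processing (SE, edgeR adjusted p = 0.601), and between -0.10 and -0.05 for Crtap, Ppib and Bmp1. In the basement membrane list, Lamc1, a laminin chain, changed by 0.06 ± 0.054 and Nid1, nidogen, by 0.04 ± 0.074 with FICZ (SE, edgeR adjusted p = 0.795 and 0.914). Lamb1, another laminin chain, had 0.10 ± 0.196 with tryptamine (SE, edgeR adjusted p = 0.978).

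Of the remaining named genes, Timp1, an inhibitor of metalloproteinases, had -0.22 ± 0.110 with FICZ (SE, edgeR adjusted p = 0.514) without control replicate 3. Tgfb3, a TGF-beta ligand, had -0.40 ± 0.118 (SE, edgeR adjusted p = 0.154), Spp1, osteopontin, -0.20 ± 0.079 (SE, edgeR adjusted p = 0.372) and Sdc2, a syndecan, -0.18 ± 0.070 (SE, edgeR adjusted p = 0.345). Among the receptors the values were 0.07 ± 0.051 for Itgb1 and 0.07 ± 0.068 for Itga5 (SE, edgeR adjusted p = 0.712 and 0.785), integrin chains that bind collagen or fibronectin as part of a pair, and 0.06 ± 0.098 for Ddr1, a collagen receptor kinase (SE, edgeR adjusted p = 0.886). The other receptors named had log2 changes of 0.28 (Itga1), -0.29 (Itgb6) and -0.11 (Itgb5), and Tnc, a tenascin, had -0.42, Mfap5, a microfibril protein, 0.23 and Sdc4 -0.08, with edgeR adjusted p-values from 0.378 for Tnc to 0.886 for Itgb6. Tgif1, Ski and Skil, which restrain SMAD-dependent transcription, had -0.19, 0.08 and 0.17 in the same fit (edgeR adjusted p = 0.570, 0.824 and 0.609).

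Across the 9 libraries, the genes whose log2 CPM was most like that of Col3a1 were Cd109 (Pearson r = 0.991), Mfsd7b (0.983) and Myof (0.977), and among matrix genes Col4a1 (0.920) and Col4a2 (0.909). For Loxl4 they were AU018091 (0.958), Jag1 (0.958) and Ror1 (0.943), and among matrix genes Col8a1 (0.728) and Fn1 (0.714). These are descriptions over 9 points that include control replicate 3.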

How the data were processed

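The deposited tables, 1 per pair of groups, list 189660 transcripts and hold whole-number counts per library, per the file headers. Per the file headers they also carry log2 fold changes, p-values and adjusted p-values computed by the authors. DESeq is named, with no version, in the submitters' processing notes. Not given in the sources used here: aligner, way of counting, genome build, annotation. All 9 columns that occur in more than 1 table were identical between tables.

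The members and the lists were chosen with earlier results of these data known. Each gene was represented by its entry with the highest mean count. Left out were entries with no gene ID, which took 3.56 to 4.23% of each library's counts. All 9 libraries entered 1 edgeR 4.0.16 fit (R 4.3.3, limma 3.58.1) with TMM scaling, filterByExpr, group as the only term, the quasi-likelihood test and Benjamini-Hochberg adjustment over all genes tested, at a threshold of 0.05. SE is |log2 fold change| over the root of F, and SDs are within a group (n = 3). The biological coefficient of variation was 0.156 with all 9 libraries and 0.0748 without control replicate 3. CPM is per effective library size. Ratios of control replicate 3 to the other controls used CPM plus 0.1, and likeness of pattern used log2(CPM + 0.5). A gene with no count can be limited to 3 counts, and intervals cover counting error only, because PCR copies could not be told apart.

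Alternatives were DESeq2 1.42.0 size factors and its Wald test, no filter, a filter of 10 counts in every library of a group, the libraries of 1 pair only, a replicate block, sums over transcripts, offsets for transcript length (lowess, span 0.3) and leaving out each library. Combinations with control replicate 3 left out were added after its values were seen. Named genes are Col3a1, Loxl4, Dcn, the lysyl oxidases, the glycoproteins and proteoglycans of the rule, the 12 highest collagens per kb, in each comparison the 5 members with the smallest p with and without control replicate 3, and of each other list the 2 genes with the smallest p in each comparison with all 9 libraries and those past the threshold. Some genes that this rule names are not reported here. Genes outside this rule (Col1a2, Col6a1, Col6a2, Col6a3, Col9a3, Col23a1 and the genes without counts) were named after their values were seen. The fit was tested on simulated counts whose spread was set near that without control replicate 3. No simulated library carried a trend with transcript length, so this does not cover the larger spread of the fit to all 9 libraries.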

Additional observations from a re-analysis of the deposited data

How the results depend on the processing

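The count of genes called with FICZ over control was 14 with all 9 libraries and between 4 and 101 when 1 library was left out, with 101 without control replicate 3. It was 54 by DESeq2's Wald test, 26 with no filter, 4 for sums over transcripts, 51 with offsets for length and 2 in the fit to that pair's 6 libraries. With control replicate 3 left out it was 117 with offsets for length, 134 by the Wald test, 102 with DESeq2 size factors and 54 for sums over transcripts. For tryptamine over control it was 1, 1 to 25 when 1 library was left out, 12 by the Wald test, 2 with no filter, 2 for sums and 6 with offsets, and with control replicate 3 left out 28 with offsets, 38 by the Wald test, 25 with size factors and 6 for sums. For FICZ over tryptamine it was 0, 0 to 17 when 1 library was left out, 10 by the Wald test, 5 with offsets and 17 in the pair alone, and with control replicate 3 left out 21 with offsets, 30 by the Wald test, 17 with size factors and 10 for sums. Matrix genes called with FICZ numbered 0 with all 9 libraries, beside 0.113% of all genes, and 0 to 2 when 1 library was left out. With control replicate 3 left out they numbered 3 with offsets and 5 by the Wald test, beside 0.933% and 1.07% of all genes. In that case there were 2 with size factors and 1 for sums, among the 102 and 54 genes called. With tryptamine the matrix genes called numbered 0, beside 0.00808% of all genes, and 0 to 1 when 1 library was left out. With control replicate 3 left out there was 1 each with offsets, by the Wald test and with size factors. These were among 28, 38 and 25 genes called. The deviations of libraries with the same replicate number correlated at -0.058 to 0.116, and those with different numbers at -0.122 to 0.102. They include control replicate 3, and whether equal numbers pair the libraries cannot be told from them. With the replicate block the count for FICZ was 4. Without control replicate 3 the block gave 206 of 12540 genes for FICZ, 45 for tryptamine and 37 between the treatments. The fit without the block and without that library gave 101, 25 and 17. Of the 24 matrix genes tested with the block, 6, 1 and 0 were called, and the 6 were 3 higher and 3 lower. Of 1381 values of single genes under alternatives, 1291 kept their direction and their side of the threshold, 24 came to pass and 66 changed sign without passing in either fit. The causes of these changes were not tested. Members with under 100 counts in all, such as Col9a1 and Col6a3, are limited by depth.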
